A study of Mus musculus with 2 samples.

Results

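A set of genes used in tissue macrophages to tell inflammatory, repair and resident states apart were followed in the immune cells of the wounded mouse cornea. The 10 members were the arginine enzymes Arg1 and Nos2, the chemokine receptors Ccr2 and Cx3cr1, the surface receptors Fcrls, Mrc1, Cd163, Folr2 and Trem2, and the secreted protein Spp1, out of 20198 genes in the count table. They were read in the 1530 wounded cells that the deposited table places in clusters 13, 14, 15 and 16, of 12417 wounded cells and 28867 cells in all. The 10858 wounded cells of clusters 0 to 11, which carried epithelial or stromal markers, served as the background.

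Monocytes enter a wound from the blood along the chemokine Ccl2, which Ccr2 senses, and can turn into macrophages there. Macrophages that kill microbes make nitric oxide from arginine through Nos2, whereas macrophages of the repair phase divert arginine to ornithine and polyamines through Arg1. Mrc1, Cd163 and Folr2 are classic surface proteins of tissue macrophages, Cx3cr1 is typical of patrolling monocytes and many resident macrophages, and Trem2 and Spp1 are known from macrophages that clear lipid and debris.

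The study compared unwounded mouse corneas (UW) with corneas collected 24 hours after the central epithelium was scraped off (W), by droplet-based single-cell RNA sequencing of dissociated tissue. Each condition was a single library of cells pooled from 4 young adult male mice, their strain not given in the sources used here, and the labels name no treatment besides the wound. Cells are therefore not replicates, no test between groups was made, and every interval given covers counting error only. Levels are unique molecular identifier (UMI) counts summed over the cells of a cluster and expressed as CPM, that is, per 1000000 UMIs of all genes in that cluster, with an exact Poisson interval.

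Pan-marker lists were read before the members, because the deposited clusters carry no names. Cluster 13 (710 cells, median 2509.5 UMIs per cell) held 35474 CPM of neutrophil markers and 1879 CPM of monocyte and macrophage markers. Cluster 14 (354 cells, median 8724 UMIs) held 10562 CPM of monocyte and macrophage markers beside 18853 CPM of dendritic markers and 14441 CPM of Langerhans markers, lists that share genes, and it also held 15826 CPM of epithelium markers. Cluster 15 (251 cells, median 10144 UMIs) held 30677 CPM of monocyte and macrophage markers, with all 12 of them detected, 5638 CPM of dendritic markers and 4392 CPM of epithelium markers, and Flt3, Zbtb46, Ccr7 and Xcr1 were at 0. Cluster 16 (215 cells, median 4411 UMIs) held 4006 CPM of T cell markers and 1475 CPM of natural killer markers, and the macrophage markers Csf1r, Adgre1 and Ms4a7 were at 0. Epithelium markers came to 13325 CPM in cluster 13 and 7710 CPM in cluster 16, against 35477 CPM in the background. Macrophage markers were thus higher in clusters 14 and 15 than in 13 and 16, and the summed dendritic and Langerhans lists exceeded them in cluster 14. Both of those lists include Cd74 and H2-Ab1, so their sums do not count cells of these types. A UMI of the narrower genes Flt3, Zbtb46, Cd209a, Ccr7, Clec9a, Xcr1 or Cd207 was in 98 of the 354 cells of cluster 14. The 4 clusters were 12.3% of W cells and 3.201% of W UMIs, and the background cells were deeper, with a median of 22460 UMIs. The UW library held 15 cells of these clusters among 16450 cells, with no cell of cluster 15, so members could not be compared between conditions within the immune clusters.

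The sequences just before the transcription starts of 3 members, Mrc1, Fcrls and Spp1, are shown as examples because these genes reached their highest level in cluster 15 and the stretch before a start held the letters GGAAGT or the reverse complement ACTTCC, the core read by ETS factors such as the myeloid factor PU.1. They are the 250 bases before the RefSeq start, 5′ to 3′ on the strand of the gene, with sequence from RefSeq on GRCm38.p6, at chr2:14229164-14229413 on the plus strand for Mrc1, chr3:87263525-87263774 on the minus strand for Fcrls and chr5:104434861-104435110 on the plus strand for Spp1. Capitals mark the match.
Mrc1: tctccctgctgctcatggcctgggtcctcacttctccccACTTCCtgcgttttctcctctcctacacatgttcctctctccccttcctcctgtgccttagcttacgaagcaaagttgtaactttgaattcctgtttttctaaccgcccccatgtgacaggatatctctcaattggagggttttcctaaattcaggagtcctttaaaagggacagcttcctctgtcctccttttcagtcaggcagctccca
Fcrls: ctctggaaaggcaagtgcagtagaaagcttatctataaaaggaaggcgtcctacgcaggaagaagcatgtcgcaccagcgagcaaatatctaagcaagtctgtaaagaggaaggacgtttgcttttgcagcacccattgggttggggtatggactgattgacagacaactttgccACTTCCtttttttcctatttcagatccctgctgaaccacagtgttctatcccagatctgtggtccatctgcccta
Spp1: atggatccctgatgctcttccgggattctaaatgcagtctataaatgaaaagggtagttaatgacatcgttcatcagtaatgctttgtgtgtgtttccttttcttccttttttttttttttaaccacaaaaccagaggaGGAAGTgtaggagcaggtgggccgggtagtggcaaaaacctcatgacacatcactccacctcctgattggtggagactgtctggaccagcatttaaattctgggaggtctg
Spp1 has a second RefSeq start without a match, and Folr2, which also has matches, is given by position only. The first base of the match lay 211 bases before the RefSeq start in Mrc1, 75 in Fcrls and 111 in Spp1. The gene spans given with each member here are those of GENCODE, which begin upstream of these RefSeq starts for Mrc1 and Fcrls, so that most of the Fcrls stretch lies inside its GENCODE span. Of the 10 members, 8 had promoters in the table, with 10 starts, and 4 of those starts, belonging to 4 members, held the motif on either strand, Folr2 being the fourth with matches that begin 136 and 81 bases before the start. Among all 32851 promoters of that length, 6485 (19.7%) held it. Arg1 and Nos2 were not in the table. The motif was chosen with results of these data known, and a match is a run of letters, not a binding site.

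Arg1, which turns arginine into ornithine and urea, lies on chromosome 10 at 24915221-24927484, minus strand, on GRCm38. It stood at 26.7 CPM (19.8 to 35.3) in cluster 13, 251 CPM (235 to 268) in cluster 14, 1333 CPM (1290 to 1377) in cluster 15 and 26.0 CPM (17.1 to 37.8) in cluster 16. Cluster 15 was highest, cluster 14 followed, and clusters 13 and 16 could not be told apart within counting error. A UMI of Arg1 was found in 68.5% of the cells of cluster 15, 33.1% of cluster 14, 11.6% of cluster 16 and 6.76% of cluster 13. When every cell was thinned to 2000 UMIs, which left out 126 cells of cluster 13, 58 of cluster 14, none of cluster 15 and 10 of cluster 16, the shares were 55.4% in cluster 15, 18.6% in cluster 14, 5.37% in cluster 16 and 5.14% in cluster 13. The 10 richest cells of cluster 14 held 43.9% of its Arg1 UMIs, against 24.7% for the 10 richest of cluster 15, and single cells reached 92 and 145 UMIs.

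Arg1 was the member for which the background mattered most. Clusters 0 to 11 of W stood at 150.7 CPM with a UMI in 48.7% of cells, and cluster by cluster they ran from 8.26 CPM in cluster 0, which had stromal markers, to 665 CPM in cluster 6, which had epithelial markers. Clusters 2 and 7, with 63332.5 and 15410 CPM of epithelium markers, stood at 478 and 346 CPM. Cluster 14 thus lay below 3 background clusters in Arg1, and cluster 15 lay above all 12. Of all Arg1 UMIs of W, 90.1% were in clusters 0 to 11 and 9.70% in clusters 14 and 15. Cluster 14 also carried more epithelium markers than cluster 15.

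Nos2, the inducible nitric oxide synthase, lies on chromosome 11 at 78920787-78960254, plus strand. It was found as 4 counts in cluster 13 (2.18 CPM, 0.594 to 5.58), 16 counts in cluster 14 (4.34 CPM, 2.48 to 7.05) and 31 counts in cluster 15 (11.4 CPM, 7.77 to 16.2), and not in cluster 16. Only 3, 9 and 19 cells of clusters 13, 14 and 15 had a UMI, the last being 7.57% of cluster 15, and the background stood at 0.0822 CPM. Nos2 was scarce wherever it was seen, and the levels of clusters 13 and 14 overlapped within counting error. After thinning, 2.79% of the cells of cluster 15 and 0.338% of cluster 14 kept a UMI. In cluster 16, 0 of 215 cells had a UMI, which at 3 counts allows a share of cells with a UMI of up to 1.40%, at the shallow depth of these cells, and a sum of 0 there allows up to 2.89 CPM.

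Ccr2, the receptor for Ccl2 that carries monocytes out of the marrow and into tissue, lies on chromosome 9 at 124101950-124113557, plus strand. It stood at 1.63 CPM (3 counts, 0.337 to 4.78) in cluster 13, 110.7 CPM (100.2 to 122) in cluster 14, 170.5 CPM (155 to 187) in cluster 15 and 152 CPM (129 to 178) in cluster 16, against 0.168 CPM in the background. Clusters 15 and 16 overlapped within counting error, as the highest pair, and cluster 14 stood below both. Cells with a UMI were 52.2% of cluster 15, 39.0% of cluster 14, 31.2% of cluster 16 and 0.423% of cluster 13. After thinning the first 3 were 25.9%, 21.3% and 19.5%. Ccr2 was the only member whose level in cluster 16 was well above the background, and within that cluster a UMI of Ccr2 was found in 17.8% of the 107 thinned cells with the T cell gene Cd3e and in 21.4% of the 98 without. It was found in 5 of the 19 cells with Trdc, the constant region of the gamma delta T cell receptor, against 18.8% of the 186 without. The widest gap among these splits with over 20 cells on each side was that of the cytotoxic gene Nkg7, at 12.3% of 81 cells with it against 24.2% of 124 without. Cd3e, Trdc and Nkg7 were chosen for this split after the data had been seen.

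Cx3cr1, the receptor for fractalkine (Cx3cl1), lies on chromosome 9 at 119901616-120069879, minus strand, an annotated span that overlaps 3 genes on the same strand, Gorasp1, Csrnp1 and Xirp1. It stood at 3.27 CPM (1.20 to 7.12) in cluster 13, 38.5 CPM (32.5 to 45.4) in cluster 14, 38.4 CPM (31.4 to 46.5) in cluster 15 and 0.962 CPM (0.0244 to 5.36) in cluster 16, against 0.425 CPM in the background. Clusters 14 and 15 did not differ beyond counting error, nor did 13 and 16. The shares of cells with a UMI were 17.8% and 17.9% in clusters 14 and 15, and 8.11% and 5.98% after thinning. Cx3cr1 was the member most evenly shared by the 2 clusters with macrophage markers.

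Fcrls, an Fc receptor-like gene best known from microglia, lies on chromosome 3 at 87250758-87263738, minus strand. It was a single count in cluster 13, 40 counts in cluster 14 (10.9 CPM, 7.76 to 14.8), 126 counts in cluster 15 (46.5 CPM, 38.7 to 55.4) and 0 in cluster 16, against 0.0215 CPM in the background. Its cells were few, 35 (13.9%) in cluster 15 and 18 (5.08%) in cluster 14, and the 10 richest cells held 54.8% of the UMIs of cluster 15. Of all Fcrls UMIs of W, 95.4% lay in clusters 14 and 15, the highest proportion among the members.

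Mrc1, the macrophage mannose receptor CD206, lies on chromosome 2 at 14229392-14332057, plus strand, and hosts the microRNA gene Mir511. It stood at 1.09 CPM (2 counts, 0.132 to 3.94) in cluster 13, 52.1 CPM (45.0 to 60.0) in cluster 14 and 201.5 CPM (185 to 219) in cluster 15, was 0 in cluster 16, and was 0.222 CPM in the background. The order was 15, then 14, then the rest. A UMI was found in 66.5% of the cells of cluster 15 and 25.1% of cluster 14, and in 27.5% and 11.5% after thinning.

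Folr2, a folate receptor of resident macrophages, lies on chromosome 7 at 101839988-101857194, minus strand. It was a single count in cluster 13, 22 counts in cluster 14 (5.97 CPM, 3.74 to 9.04), 173 counts in cluster 15 (63.8 CPM, 54.7 to 74.1) and 0 in cluster 16. Cluster 15 stood above cluster 14 beyond counting error, with a UMI in 26.7% of cells against 4.80% of cluster 14. Folr2 was not limited to immune cells, since the background held 79.1% of its W UMIs. Cluster 7, with 15410 CPM of epithelium markers, reached 23.9 CPM with a UMI in 28.0% of cells. Folr1, a related folate receptor next to Folr2 on the same strand, stood at 107 CPM in cluster 7 and at 1.48 CPM in cluster 15, and how the 2 genes share reads was not tested.

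Cd163, the scavenger receptor for haptoglobin-bound haemoglobin, lies on chromosome 6 at 124304656-124330527, plus strand. It was a single count in cluster 13, 13 counts in 4 cells of cluster 14 (3.53 CPM, 1.88 to 6.03), 29 counts in 6 cells of cluster 15 (10.7 CPM, 7.17 to 15.4) and 0 in cluster 16. A single cell gave 10 of the 13 counts in cluster 14 and another gave 15 of the 29 in cluster 15, so its level rested on very few cells. In the background it was 3 counts among 10858 cells.

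Trem2, a lipid-sensing receptor that signals through Tyrobp, lies on chromosome 17 at 48346401-48354147, plus strand. It stood at 3.27 CPM (1.20 to 7.12) in cluster 13, 60.8 CPM (53.1 to 69.3) in cluster 14 and 193 CPM (177 to 210) in cluster 15, was 0 in cluster 16, and was 0.186 CPM in the background. Cluster 15 was above cluster 14, and both were above cluster 13, beyond counting error. The shares of cells with a UMI were 65.7% and 24.9% in clusters 15 and 14, and 30.3% and 12.2% after thinning.

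Spp1, osteopontin, a secreted ligand of integrins and Cd44, lies on chromosome 5 at 104435118-104441050, plus strand. It stood at 3178.5 CPM (3098 to 3261) in cluster 13, 1415 CPM (1377 to 1454) in cluster 14, 4928 CPM (4845 to 5013) in cluster 15 and 52.0 CPM (39.0 to 67.8) in cluster 16, against 47.6 CPM (46.8 to 48.4) in the background. Its order was thus 15, 13, 14, and last cluster 16, which overlapped the background within counting error. It was the only member higher in cluster 13 than in cluster 14. Cells with a UMI were 74.1% of cluster 15, 48.9% of cluster 14, 44.8% of cluster 13, 14.9% of cluster 16 and 24.0% of the background. Thinned, the shares were 59.0%, 32.8%, 44.0%, 4.39% and 4.21%, so that cluster 13 stood above cluster 14 by this measure too. In cluster 13 the gene was found in 37.8% of the 278 thinned cells with the granulocyte receptor Csf3r and in 49.7% of the 306 without. With Retnlg, another neutrophil gene, it was the other way, at 54.1% of 61 cells against 42.8% of 523, and with Ly6g it was 6 of 12 cells against 43.9% of 572. With Csf1r, the receptor of macrophage growth factor, it was 48.5% of 33 cells against 43.7% of 551, and all these markers were chosen after the data had been seen. A few cells carried much of it, up to 448 UMIs in 1 cell of cluster 14 and 943 in 1 cell of cluster 15, and the 10 richest cells held 48.9% and 36.4% of the UMIs of those clusters.

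**Figure D1:**
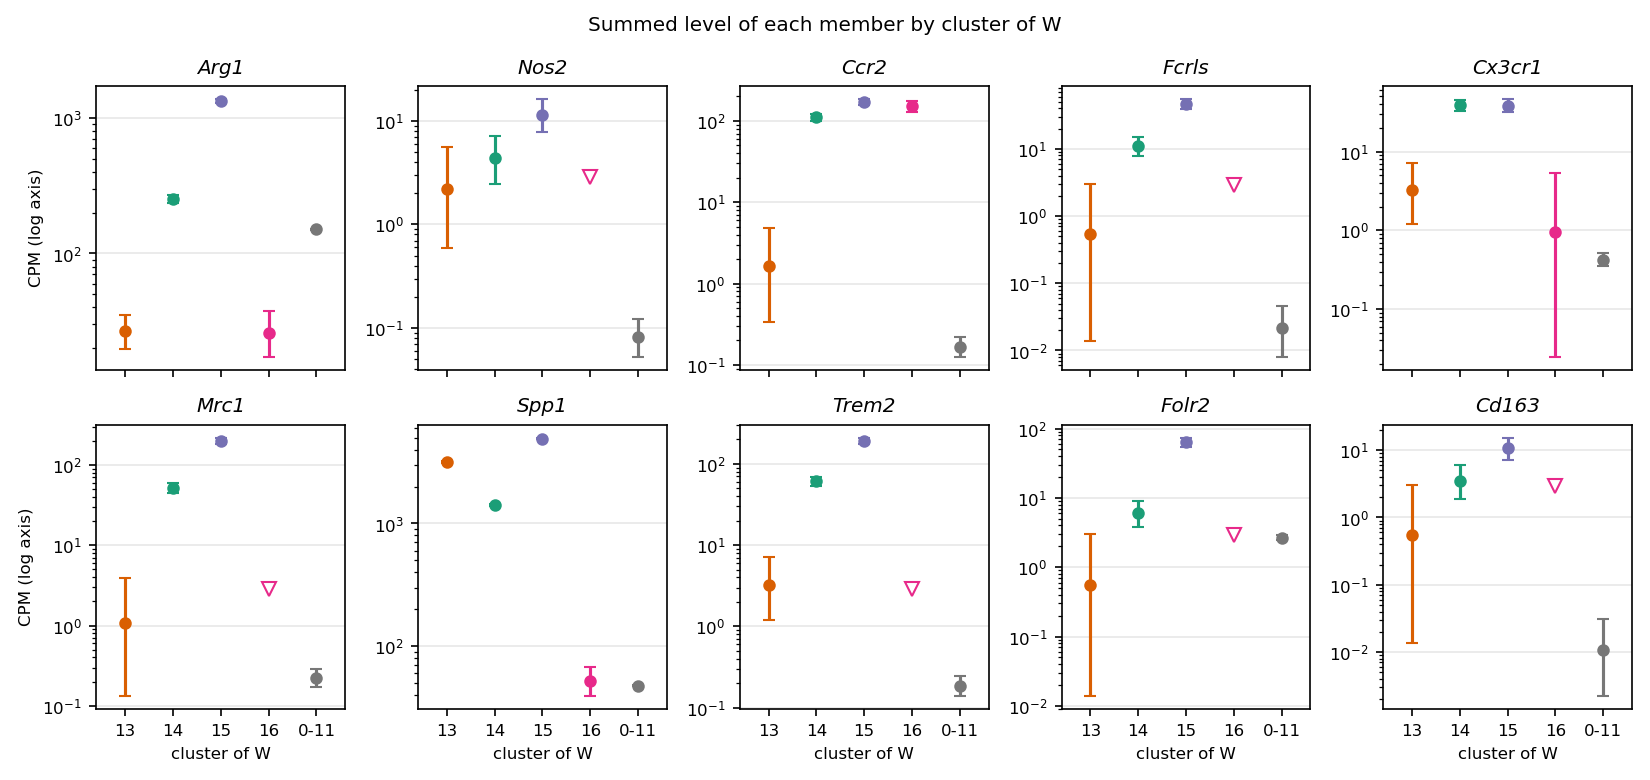
Summed level of each member in clusters 13 to 16 and in clusters 0 to 11 together of W, in CPM on a log axis, with exact Poisson 95% intervals of counting error; each panel is a gene. Cluster 15 is highest for Arg1 (1333 CPM) and Spp1 (4928 CPM), Cx3cr1 is level between clusters 14 and 15 (38.5 and 38.4 CPM), and in cluster 16 only Ccr2 (152 CPM) is far above the background.

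**Figure D2:**
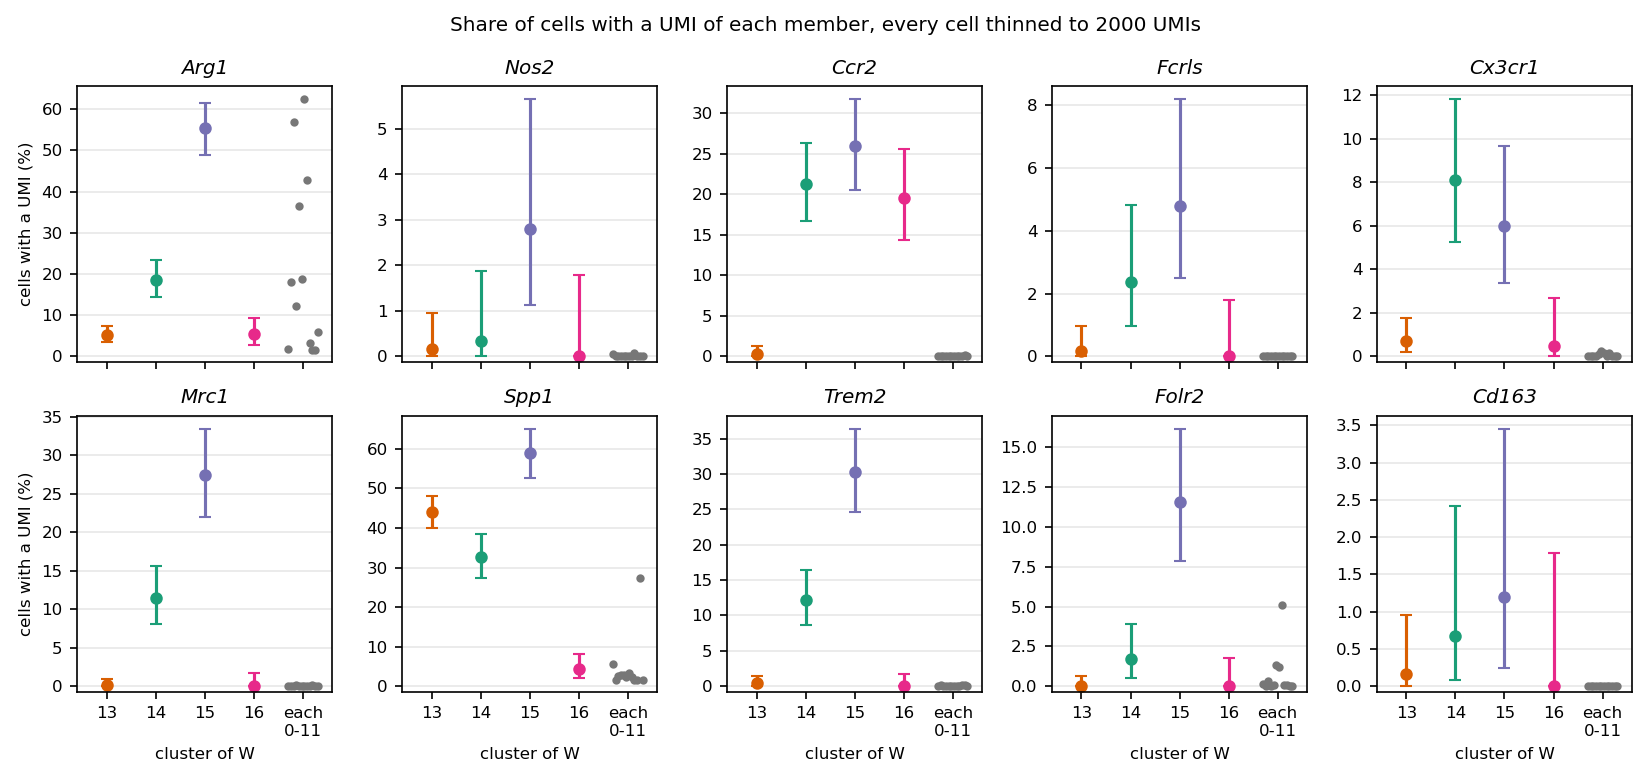
Share of cells with a UMI of each member, in percent, after every cell was thinned to 2000 UMIs, for clusters 13 to 16 of W and for each of clusters 0 to 11; bars are exact Clopper-Pearson 95% intervals of counting error. Arg1 was found in 55.4% of the thinned cells of cluster 15 and in up to 62.6% of those of a background cluster, whereas Ccr2, Fcrls, Mrc1, Trem2 and Cd163 were close to 0 in every background cluster.

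Against the background, a member was counted as higher where its CPM ratio was at least 4 with at least 10 counts in the cluster, and as lower where the ratio was at most the inverse of 4 and at least 10 counts would have come at the background level. The clusters had been built from the expression of these same cells, so the counts are a description. Which of the members were among the genes used for clustering is not stated. All 10 members were higher in cluster 15 and none was lower, where 6.55% of the 16641 genes tested were higher and 10.6% lower. In cluster 14, 8 members were higher and none lower, with 5.83% and 3.75% of all genes, the exceptions being Arg1 (1.67-fold) and Folr2 (2.23-fold). In cluster 13 only Spp1 was higher, 66.8-fold (64.7 to 68.9), and only Arg1 lower, 5.65-fold, with 5.72% and 3.66% of all genes higher and lower. In cluster 16 only Ccr2 was higher, 905-fold (650 to 1282), and only Arg1 lower, 5.80-fold, with 5.18% and 5.28% of all genes. The median log2 ratio of the members was 8.47 in cluster 15 and 7.19 in cluster 14, beside 0.14 and 0.05 for all genes tested. In clusters 16 and 13 it came to 3.83 and 3.71, beside 0.52 and -0.16, from members with few or no counts. The value of cluster 16 is not a measured level, since it fell between Mrc1 and Trem2, both at 0 counts and set to 3 counts. That of cluster 13 fell between Ccr2 (3 counts) and Trem2 (6 counts).

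The size of the gap to the background differed widely. In cluster 15 it was 2168-fold for Fcrls, 1038-fold for Trem2, 1015-fold for Ccr2, 998-fold for Cd163, 909-fold for Mrc1, 139-fold for Nos2, 104-fold for Spp1, 90.2-fold for Cx3cr1, 23.9-fold for Folr2 and 8.85-fold (8.55 to 9.15) for Arg1. The smallest gaps were those of Arg1 and Folr2, whose background stood at 150.7 and 2.67 CPM. Set against the single highest background cluster instead, 8 members were still higher in cluster 15, with Arg1 and Folr2 no longer counted. In cluster 14, 7 were, with Spp1 no longer counted. Of all genes, 3.54% were higher and 25.8% lower in cluster 15 by this measure, and 3.40% and 22.8% in cluster 14. Against that stricter background Spp1 was not counted as higher in cluster 13, because cluster 10, which had stromal markers, stood at 1029 CPM.

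Clusters 14 and 15 both carried macrophage markers and were compared with each other, counting a ratio of at least 2. In cluster 15, 8 members were higher and none lower, where 3.40% of all genes were higher and 9.78% lower. The ratio of cluster 15 over 14 was 10.7 (6.84 to 17.5) for Folr2, 5.31 (4.94 to 5.72) for Arg1, 4.28 (2.98 to 6.28) for Fcrls and 3.87 (3.28 to 4.58) for Mrc1. It was 3.48 (3.37 to 3.60) for Spp1, 3.18 (2.71 to 3.73) for Trem2, 3.03 (1.53 to 6.36) for Cd163 and 2.64 (1.40 to 5.16) for Nos2. Ccr2 was 1.54-fold higher (1.35 to 1.76) and Cx3cr1 was level, at 0.996 (0.766 to 1.29). Arg1, known from repair, and Folr2, known from resident macrophages, were thus higher in the same cluster. Nos2, known from killing, was higher there too in this reading, on 31 against 16 counts, but it fell under 2 in some readings below.

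The ratios were read again at equal depth and without cells that carried markers of other types. With each cell thinned to 2000 UMIs, the ratio was 7.47 for Folr2, 5.75 for Arg1, 2.80 for Spp1, 2.67 for Mrc1, 2.34 for Trem2 and 2.16 for Fcrls, while Nos2 (7 against 1 counts) and Cd163 (8 against 3 counts) had too few counts left. In a second random draw the first 4 stayed over 2, whereas Fcrls stood at 1.93 and Trem2 at 1.90. Cells with a UMI of Flt3, Zbtb46, Cd209a, Ccr7, Clec9a, Xcr1 or Cd207, genes of dendritic or Langerhans cells, were 98 of the 354 cells of cluster 14 and 6 of the 251 of cluster 15. Without them Arg1 stood at a ratio of 3.57, Folr2 at 7.42, Fcrls at 2.74, Mrc1 at 2.80, Spp1 at 2.38 and Trem2 at 2.22, while Nos2 (1.63) and Cd163 (1.05) were under 2. Without cells that had over 1.5% of their UMIs from epithelium markers, 93 in cluster 14 and 2 in cluster 15, Arg1 stood at 6.84 and Ccr2 at 1.16. As a mean over cells of CPM per cell, Folr2 stood at 4.55, below Arg1 at 4.79. The ratios of Arg1, Folr2, Mrc1 and Spp1 were over 2 in all of these readings for which they are given.

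**Figure D3:**
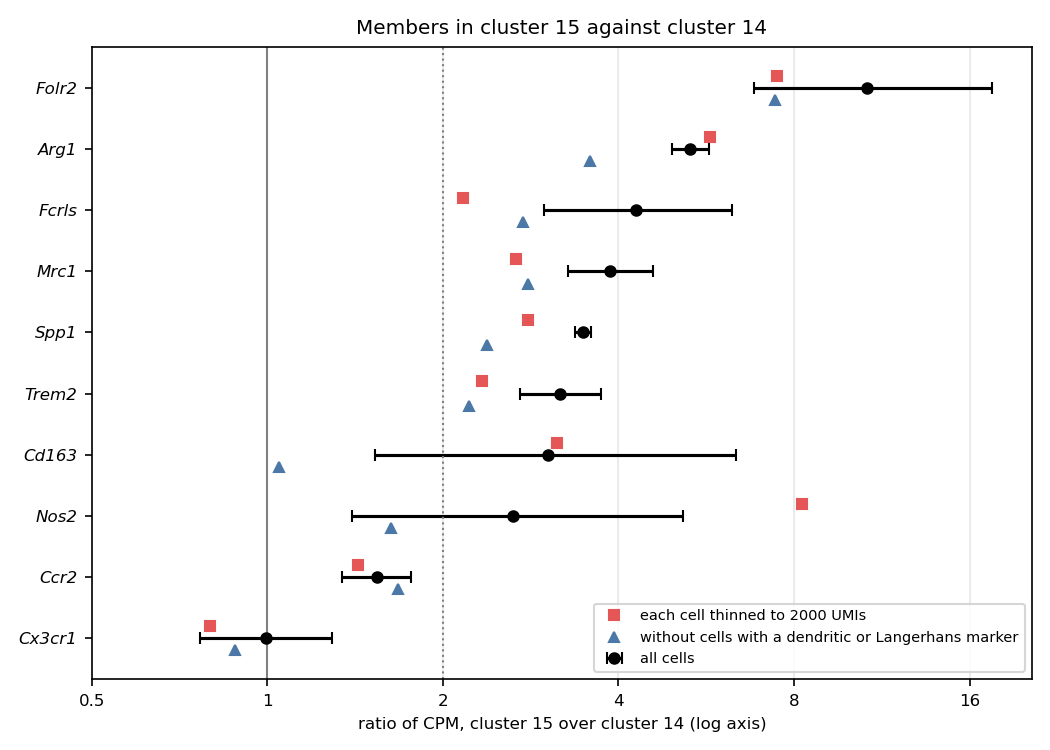
Ratio of the CPM of each member in cluster 15 over cluster 14 of W on a log axis, with exact conditional 95% intervals of counting error, and the same ratio after thinning to 2000 UMIs and without cells that had a dendritic or Langerhans marker. Folr2 (10.7) and Arg1 (5.31) lie farthest to the right, Cx3cr1 (0.996) at equality, and the thinned Nos2 value rests on 7 against 1 counts.

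Clusters 14 and 15 as a whole were also set against the other immune clusters. Against cluster 13, 8 members were higher at 4-fold and none lower, where 4.20% of all genes were higher and 2.19% lower. Arg1 was 26.6-fold (20.1 to 36.0) higher, Trem2 35.7-fold, Mrc1 106-fold (29.2 to 876), Ccr2 83.2-fold (28.4 to 404) and Cx3cr1 11.8-fold. Nos2 was 3.37-fold higher, under the limit, and Spp1 was slightly lower, at 0.914 (0.887 to 0.941). Against cluster 16, 7 members were higher and none lower, with 4.27% and 3.26% of all genes. Arg1 was 27.3-fold, Spp1 55.9-fold and Cx3cr1 40.0-fold higher, and for members with no count in cluster 16 the ratio was at least 40.5 for Trem2, 40.0 for Mrc1, 10.6 for Folr2 and 8.99 for Fcrls. The bounds for Nos2 (at least 2.55) and Cd163 (at least 2.28) did not reach 4, and Ccr2 stood at 0.895 (0.754 to 1.07). Spp1 was thus shared with the neutrophil-marker cluster and Ccr2 with the T cell-marker cluster.

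Whether the members were found in the same cells was read in the 547 cells of clusters 14 and 15 that had at least 2000 UMIs, after thinning. Spp1 was found in 134 of the 194 cells with Arg1 (69.1%, 62.1 to 75.5) and in 111 of the 353 without (31.4%, 26.6 to 36.6). The pairing held inside each cluster, at 65.5% against 25.3% in cluster 14 and 70.5% against 44.6% in cluster 15. Cx3cr1 went the other way, found in 1.55% (0.320 to 4.45) of the cells with Arg1 and 10.2% (7.25 to 13.8) of those without. It was 1.82% against 9.54% in cluster 14 alone and 1.44% against 11.6% in cluster 15 alone, though the intervals overlapped in cluster 14. Arg1 and Spp1 were thus found together, and Cx3cr1 mostly in cells without them, since it was also found in 2.45% of the cells with Spp1 and 10.9% of those without.

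Fcrls, Nos2 and Cd163 were in too few thinned cells for pairs. Without thinning, Cx3cr1 was found in 69.8% of the 53 cells with Fcrls and 12.9% of the 552 without, Trem2 in 88.7% and 37.3%, and Mrc1 in 86.8% and 38.0%. These gaps were wider than that of Arg1 and Spp1 without thinning (77.2% against 43.0%), but cell depth may add to them, which was not tested for Fcrls. Trem2, for example, was found in 49.1% of the cells with Arg1 and 35.1% of those without before thinning, but in 19.1% and 21.25% after. The gap of Arg1 and Spp1 was not wider before thinning (34.12 percentage points) than after (37.63). Trem2 was found in 35.0% of the cells with Mrc1 and 17.1% of those without, with the same direction in each cluster alone. Trem2 was also found in 35.9% of the cells with Cx3cr1 and 19.3% of those without, and Ccr2 in 10.3% and 24.4%, each in the same direction in either cluster, though the thinned pooled intervals overlapped. Without thinning, Arg1 was found in 15.1% of the cells with Fcrls and 50.9% of those without, and Spp1 in 35.8% and 61.6%. Ccr2 was found in 23.7% of the cells with Arg1 and 23.2% of those without, so that 46 cells held both, 148 Arg1 without Ccr2, 82 Ccr2 without Arg1, and 271 neither. Arg1 and Mrc1 differed in sign between the clusters, since Mrc1 in cells with Arg1 was 5.99 percentage points more frequent in cluster 14 and in cluster 15 it was 23.0% against 33.0%, with overlapping intervals in both. Without thinning Mrc1 was found in 51.2% of the cells with Arg1 and 34.2% of those without. A single cell held at most 5 of the 10 members after thinning, and 116 of the 547 cells held none.

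**Figure D4:**
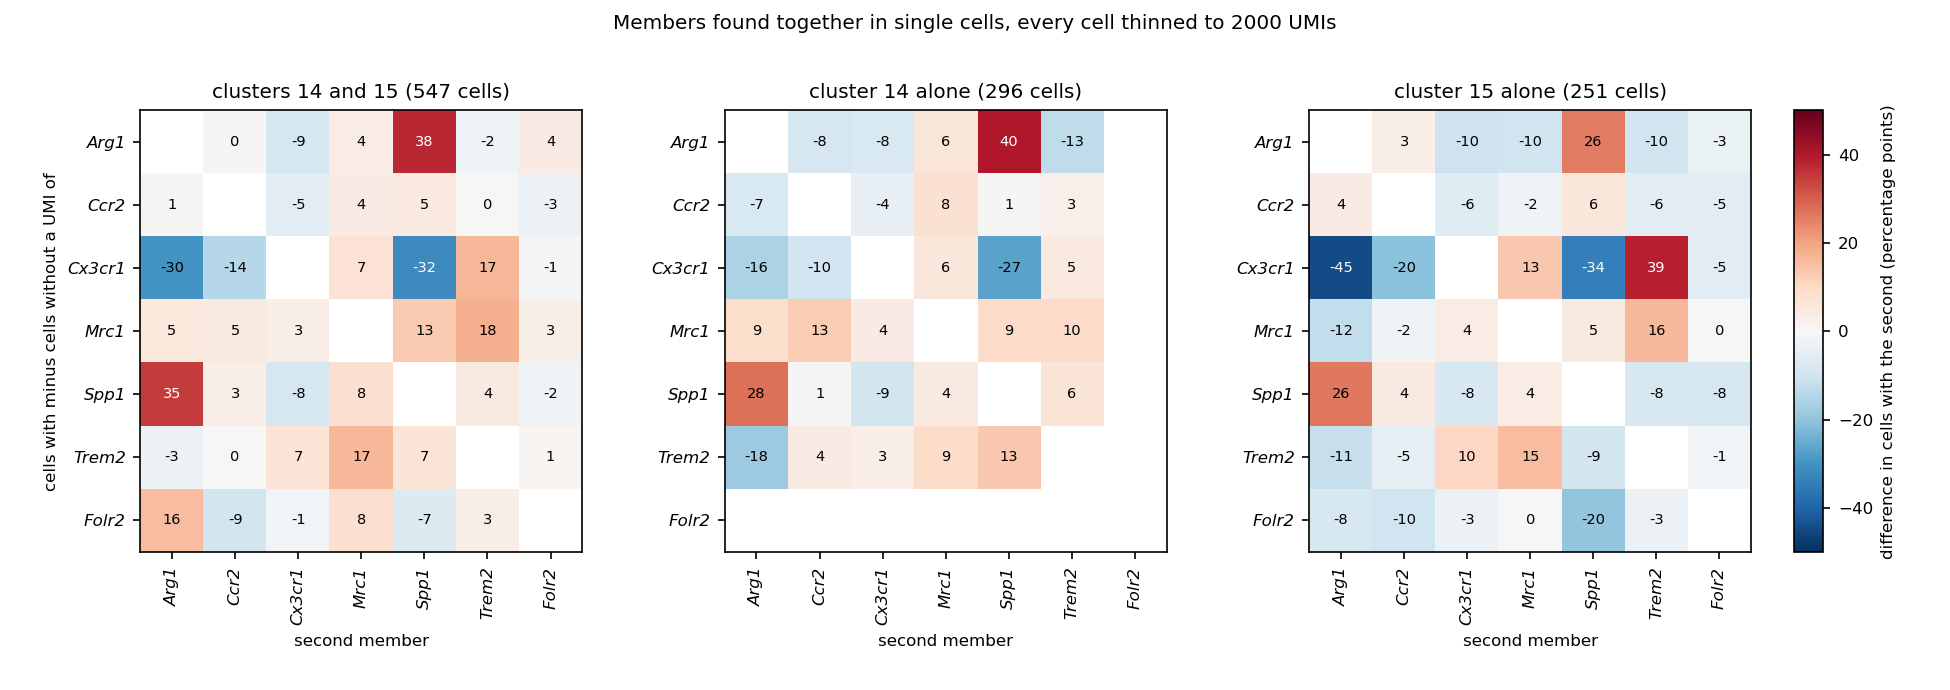
Pairs of members in single cells of clusters 14 and 15 of W thinned to 2000 UMIs; the colour is the share of cells with the second gene among cells with the first, less that among cells without it, in percentage points. Fcrls, Nos2 and Cd163 are not shown, being in too few thinned cells, and among the 7 members shown Arg1 and Spp1 form the strongest positive pair in the pooled cells (69.1% against 31.4%), and Cx3cr1 is negative with both.

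Splitting the same cells by other marker genes, chosen after the data had been seen, gave different pictures by marker. These splits pool clusters 14 and 15 and were not read within each cluster. Ly6c2, like Arg1 and Spp1, was higher in cluster 15 than in cluster 14 (578 against 185 CPM). Among the 211 cells with the complement gene C1qa, Cx3cr1 was found in 15.6% and Trem2 in 29.4%, against 1.79% and 14.9% of the 336 without. Arg1 (24.2% against 42.6%) and Spp1 (33.2% against 52.1%) had lower shares in the cells with C1qa. Among the 137 cells with Ly6c2, a gene of inflammatory monocytes, Arg1 was found in 52.6%, Spp1 in 66.4% and Ccr2 in 36.5%, against 29.8%, 37.6% and 19.0% of the 410 without. Cx3cr1 was found in 1.46% of the cells with Ly6c2 and 9.02% of those without. With the macrophage gene Adgre1, Arg1 was found in 38.1% of 139 cells against 34.6% of 408, Spp1 in 39.6% against 46.6%, and Trem2 in 31.7% against 16.7%. Trem2 and Cx3cr1 had the higher share in cells with C1qa and with Adgre1, at 11.5% against 5.64% for Cx3cr1 with Adgre1, whereas Arg1 was lower with C1qa but not with Adgre1.

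The genes whose values ran most like each member were taken from 8926 genes over the 605 cells of clusters 14 and 15, as Pearson's r of the log of UMIs per 10000, given as a description since all cells share a library and differ in depth. Arg1 ran with Ccl6 (r = 0.550), Ctsl (0.522), Thbs1 (0.520), Clec4d (0.516) and Msr1 (0.513). For Spp1 these were the same 5 genes, Clec4d (0.573), Ccl6 (0.551), Thbs1 (0.529), Ctsl (0.519) and Msr1 (0.489), and Arg1 and Spp1 had r = 0.418 with each other. They are a chemokine, a lysosomal protease, the matrix protein thrombospondin, a C-type lectin and a scavenger receptor.

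The receptors ran with another group. Fcrls had its highest r with Gas6 (0.535), Selenop (0.464), Trf (0.432), Cd81 (0.426) and C1qc (0.424), and Cx3cr1 with C1qa (0.491), Lilra5 (0.482), C1qc (0.478) and Cd81 (0.441). Trem2 ran with Selenop (0.412), Fcrls (0.397), Lgmn (0.392), Ctsb (0.382) and Apoe (0.381). Mrc1 ran with Pf4 (0.436), Ctsb (0.391), Selenop (0.387), C3ar1 (0.382) and Stab1 (0.377). Selenop, a selenium carrier, Cd81, a tetraspanin, the complement gene C1qc and the lysosomal protease gene Ctsb came up in several of these lists. Ccr2 ran with S100a4 (0.433), Emb (0.411), Ifitm6 (0.392), Tpt1 (0.359) and Sirpb1c (0.357), and Folr2 with Ccl8 (0.310) and Ctsb (0.306). Most of these lists changed when a cluster was taken alone. In cluster 15 by itself Fcrls had r = 0.723 with Gas6 and 0.589 with Cx3cr1, and Arg1 had r = -0.42 with Fcrls and -0.38 with Cx3cr1.

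Both conditions held many background cells, so the members could be set side by side there, with 1 library each. Arg1 stood at 150.7 CPM in clusters 0 to 11 of W and 159 CPM in those of UW, a ratio of 0.947 (0.935 to 0.959), although the ratio was over 1 in 11 of the 12 clusters taken singly, with intervals that spanned 1 in clusters 0, 9 and 10. The ratio was 6.42 in cluster 3, 3.66 in cluster 11, 2.19 in cluster 2 and 1.53 in cluster 6, and below 1 (0.916) only in cluster 7. Arg1 was thus an epithelial gene in the unwounded cornea as well. Clusters 2, 6 and 7, where it was highest in W, held 888, 652 and 528 W cells against 1904, 1533 and 1511 UW cells, so that the pooled value also moved with the mix of clusters.

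Spp1 stood at 4.40 CPM in UW and 47.6 CPM in W over clusters 0 to 11, a ratio of 10.8 (10.3 to 11.4). Cluster 10, with stromal markers, already stood at 257 CPM in UW and was at 1029 CPM in W, a ratio of 4.00 (3.79 to 4.23). Cluster 0, also stromal by its markers, stood at 55.7 CPM against 1.16 CPM, a ratio of 48.0 (34.0 to 69.9). Spp1 was higher in W in all 12 clusters. The 10 epithelium-marker clusters stood at 7.65 to 24.4 CPM in W and at most 0.742 CPM in UW. In W, immune cells rich in Spp1 were in the same library and neutrophil markers summed to 631 CPM over clusters 0 to 11, and the part of free RNA in these values was not tested.

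Folr2 was lower in W, at 2.67 CPM against 6.07 CPM, a ratio of 0.440 (0.405 to 0.478). In cluster 7 it was level, at 23.9 and 24.0 CPM, and in cluster 5 it stood at 8.46 CPM in W and 21.6 CPM in UW. The remaining members were rare in these clusters. Ccr2 was 47 counts in W and 1 in UW, Nos2 23 and 1, Trem2 52 and 19, Mrc1 62 and 55, with ratios of 61.7 (10.5 to 2487), 30.2 (4.90 to 1243), 3.59 (2.09 to 6.43) and 1.48 (1.01 to 2.17). Cx3cr1 was 119 and 130 counts, a ratio of 1.20 (0.929 to 1.55), Fcrls 6 and 10 counts, a ratio of 0.787 (0.235 to 2.39), and Cd163 3 and 2 counts. Of the 23 counts of Nos2 in W, 17 were in cluster 0. In the 15 UW cells of the immune clusters there were 4 counts of Ccr2, 2 of Mrc1, 1 each of Arg1, Fcrls, Cx3cr1 and Trem2, and none of Spp1, Nos2, Folr2 or Cd163.

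**Figure D5:**
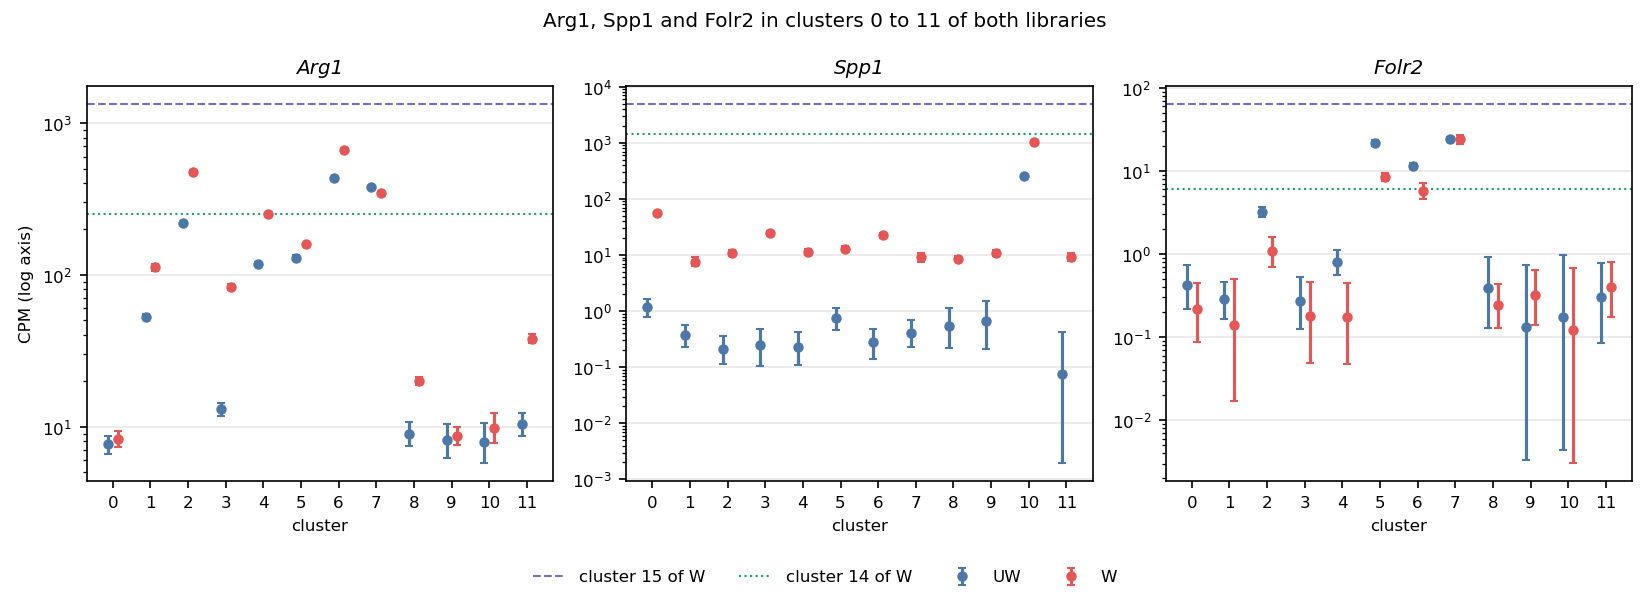
CPM of Arg1, Spp1 and Folr2 in each of clusters 0 to 11 of UW and W on log axes, with exact Poisson 95% intervals of counting error; the lines give clusters 14 and 15 of W. Arg1 in cluster 6 of W (665 CPM) lies above cluster 14 (251 CPM), Spp1 lies higher in W in every cluster, and Folr2 in cluster 7 is level between UW and W (24.0 and 23.9 CPM).

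Other genes of the members' pathways were read from lists chosen with earlier results known, counting 2-fold ratios of cluster 15 over 14 and giving up to 4 genes with the largest ratios, beside the 3.40% of all genes that were higher and the 9.78% that were lower. Of 11 arginine genes tested, 3 were higher, Arg1, Nos2 and the mitochondrial arginase Arg2 (91.5 against 36.6 CPM), and 1 was lower, Nos3, with an interval that spanned equality. Arg2 was highest in cluster 13, at 382 CPM. Of 18 ligands and partners of the members, 5 were higher and 3 lower in cluster 15, led by the chemokines Ccl8 (458 against 47.2 CPM), Ccl12 (1016 against 189 CPM) and Ccl7 (4213 against 843 CPM). Cx3cl1, the ligand of Cx3cr1, was 6.78 CPM in cluster 14 and 0 in cluster 15.

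Of 15 genes of resident macrophages, 6 were higher and 2 lower in cluster 15, led by Pf4 (3237 against 450.2 CPM), F13a1 (230 against 44.8 CPM) and the transcription factor Maf (236 against 62.4 CPM), while Timd4 was lower (0.738 against 4.07 CPM). Of 11 genes of inflammatory monocytes, 6 were higher and none lower, among them Ly6c2 (578 against 185 CPM), Vcan (50.9 against 17.6 CPM) and Clec4e (477 against 189 CPM). Of 12 lipid-associated genes, 4 were higher and none lower, all of lysosomes or lipid droplets, namely Plin2 (827 against 273 CPM), Ctsb (2113 against 702 CPM), Ctsl (2876 against 1156 CPM) and Ctsd (1078 against 481 CPM).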

How the data were processed

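Corneal cells of 1 UW and 1 W library were measured by droplet-based single-cell RNA sequencing. The authors deposited a table of raw UMI counts per gene and cell and a cell table, whose columns hold cluster numbers, depth and doublet calls; per the labels, reads went through Cell Ranger 3.1.0 and Seurat. The genome build is named as mm9 in the submitters' processing notes and as mm10 in the methods, and the kit version also differs between them. The deposited cells, which number fewer than the study states, have 501 to 7570 genes and at most 9.99% mitochondrial UMIs. All cell columns matched a library, and 52 barcodes were found in both libraries, 8 of them in immune cells of W. Of the immune cells of W, 2 carried a doublet call and were kept.

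UMI counts were summed per cluster and divided by the cluster's total to give CPM. Exact Poisson, conditional and Clopper-Pearson 95% intervals were computed with SciPy 1.17.1, pandas 2.3.3 and NumPy 2.4.6 in Python 3.11.15, and figures with matplotlib 3.10.9. A sum of 0 was set to 3 counts for a bound. Genes with at least 20 counts in the background and the immune clusters of W together were tested for size, and calls needed at least 10 counts. The same 16641 genes were thus tested in every main comparison, also in those between immune clusters. The shares of all genes given there therefore include genes with too few counts in the compared clusters to be called. With 1 library per condition no p-value was computed. Cells were thinned at random to 2000 UMIs with a fixed seed. Correlations ran over genes found in at least 5% of cells, without mitochondrial and ribosomal protein genes, naming up to 5 genes of r at least 0.3 per member. All 10 members were named, and of each list the 4 genes with the largest ratio among those counted, except a few genes that are not reported here. Normalization factors from edgeR 4.0.16 and DESeq2 1.42.0 (R 4.3.3), cell filters, thinning, other backgrounds and other limits were tried as alternatives, and the scripts were tested on simulated data. Coordinates come from GENCODE on GRCm38. The members, lists and motif were chosen with earlier results of these data known.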

Additional observations from a re-analysis of the deposited data

Results flagged for a closer look

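Cluster 17 of W, 29 cells with 35680 CPM of stromal markers and 3902 CPM of neutrophil markers, was in none of the comparisons. It also held 1399.5 CPM of monocyte and macrophage markers and 769 CPM of dendritic markers, against 224.6 and 24.0 CPM in clusters 0 to 11. Members were found there above the 5.63 CPM that a sum of 0 allows. Spp1 stood at 1002 CPM, 534 counts in 22 of the 29 cells. Arg1 stood at 43.2 CPM, 23 counts in 9 cells, and Mrc1 at 13.1 CPM, 7 counts in 2 cells. Ccr2 stood at 7.50 CPM, 4 counts in 3 cells. The Spp1 level was close to the 1029 CPM of cluster 10, which also has stromal markers, and the part of immune cells or free RNA in these 29 cells was not tested.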

How the results depend on the processing

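Of 97 counts of members recomputed under alternatives, 92 stayed within 1.5 times the reported count. In cluster 13 the members higher than the background were 8 with no minimum count, beside 9.82% of all genes, where the reported count was 1. They were 0 against the single highest background cluster, beside 3.62% of all genes. Arg1 and Folr2 were lower in both settings, beside 4.51% and 26.3% of all genes. In cluster 16 the members higher were 2 (Ccr2 and Spp1) against clusters 1 to 9 and 11, beside 6.76% of all genes, where the reported count was 1. Members higher in cluster 15 than in 14 were 6 after thinning, beside 3.24% of all genes. In a second draw of it they were 4 (Arg1, Mrc1, Spp1 and Folr2), beside 3.48%. At a ratio of at least 4 they were 3 (Arg1, Fcrls and Folr2), beside 0.355%. The reported count was 8, beside 3.40%. Nos2 had a ratio of 0.983 in that second draw, which left only 5 against 6 counts, and 7 against 1 in the first. Counts over all alternatives ran from 6 to 9 in cluster 14, from 8 to 10 in cluster 15, from 7 to 9 for clusters 14 and 15 against 13 and from 6 to 7 against 16. Of 850 ratios of single members 694 stayed within counting error, 155 moved beyond it and 1 turned. Of 120 shares of cells 54 moved beyond counting error, of 134 co-detection values 44 did, and of 15 lists of most similar genes in a cluster alone 13 changed. A planned filter at 0.1% of UMIs from epithelium markers gave no value, since every immune cell of W exceeded it, so a limit of 1.5% was added after seeing the data. Leaving out shared barcodes, leaving out cells with dendritic or Langerhans markers and the second draw were also added then. No paired analysis was possible because each condition is 1 library, and leaving out a replicate was not possible for the same reason. Nos2 and Cd163 had at most 31 counts in any immune cluster of W, and the cells of cluster 13 have a median of 2509.5 UMIs.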

Other observations

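Lists other than those above gave further values for the same cells, to be read beside the 3.40% of all genes that were higher and the 9.78% that were lower in cluster 15. Of 12 genes of alternative activation, none was higher and 6 were lower in cluster 15 than in cluster 14 at 2-fold, led by Ccl17 (0 against 75.2 CPM), Retnla (0 against 25.2 CPM), Mgl2 (51.3 against 249.9 CPM) and Clec10a (20.3 against 75.4 CPM), of which Mgl2, Clec10a and Ccl17 are also known from dendritic cells. Arg1 and Mrc1, often grouped with these genes, stood on the other side. Of 15 genes of classical activation, 2 were higher, Cxcl9 (24.4 against 8.96 CPM) and Ptgs2 (193 against 75.4 CPM), and 1 was lower, Il12b (0 against 13.3 CPM). Of 14 secreted wound factors, 5 were higher and 3 lower, led by Hmox1 (581 against 142.5 CPM) and Thbs1 (1130 against 406 CPM) on one side and the growth factors Areg (94.8 against 366 CPM) and Hbegf (53.9 against 177 CPM) on the other. Of 8 genes of patrolling monocytes, none was higher and 1 was lower, Treml4 (1.11 against 3.80 CPM), with an interval that spanned equality.

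In cluster 13, Il1b stood at 2736 CPM and Acod1, which makes itaconate, at 1040.1 CPM, against 5.39 and 1.29 CPM in the background, beside the 3178.5 CPM of Spp1. Osm, an interleukin-6 family cytokine, stood at 133 CPM in cluster 13, 39.4 CPM in cluster 14, 105 CPM in cluster 15 and 7.70 CPM in cluster 16, against 0.30 CPM in the background.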
